A study of Mus musculus with 3 samples.

Results

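The genes described here are 8 that are used as markers of eosinophils and basophils: *Prg2*, *Epx*, *Ear1*, *Ear2*, *Prss34*, *Ccr3*, *Cd200r3* and *Siglec5*. They were listed by name, and every array probe whose gene name matched one of them was taken. Of the 8 genes, 6 were found, with 8 probes among the 41174 probes and 27962 gene names of the array, whereas no probe carried the name *Ear2* or *Siglec5*. The probes were read in mast cell progenitors (MCps) from WT mice and from *p85α−/−* mice, which lack the p85α regulatory subunit of PI3K encoded by *Pik3r1*. Marrow low density mononuclear cells of 3 mice per genotype were grown separately for 7 days with IL-3 at 10 ng/mL. Cells carrying both KIT and the IgE receptor were then sorted and kept for 48 hours with the KIT ligand SCF at 100 ng/mL, and the cDNA of these few cells was amplified by global PCR. Each of 3 arrays, replicates 1, 2 and 3, held 1 WT culture in Cy3 and 1 *p85α−/−* culture in Cy5, so dye and genotype cannot be told apart. The question behind the arrays was how loss of p85α changes expression in MCps that respond to SCF.

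Eosinophils store cationic proteins in their granules, among them major basic protein, eosinophil peroxidase and ribonucleases of the Ear family, and they enter tissues through the eotaxin receptor CCR3. Basophils are close to mast cells in several ways, since both carry the high-affinity IgE receptor, store histamine and grow from marrow in IL-3, but mouse basophils make granule proteases of their own. A sort on the IgE receptor alone would take basophils as well, whereas mature basophils carry little or no KIT.

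Levels are given as normalized log2 intensities, after background correction and quantile normalization of the 6 channels, and 1 unit is a 2-fold difference in intensity. Before normalization the *p85α−/−* channel was the brighter one, with median spot signals of 210.9, 517.3 and 206.6 in replicates 1, 2 and 3 against 76.1, 71.5 and 141.2 for WT. The probes of *Pik3r1*, the gene disrupted in the *p85α−/−* mice, went different ways. At the brightest of the 4 *Pik3r1* probes the level was 9.25, 8.89 and 8.36 in the WT cultures and 10.74, 8.86 and 8.69 in the *p85α−/−* cultures. The genotypes overlapped there, with a mean log2 ratio of 0.59. A second probe had 9.79, 8.82 and 8.99 in WT and 8.75, 8.51 and 8.62 in *p85α−/−*. It was lower in *p85α−/−* on all 3 arrays without overlap, with a mean of −0.58 ± 0.41 (SD, n = 3) and a limma adjusted p of 0.908. Another was higher in *p85α−/−* on all 3 arrays, with a mean of 0.32 and genotypes that overlapped, and the last had a mean of −0.04. Which probes lie in the disrupted part is not given in the sources used here, and directions are those of the labels. The study reports loss of the p85α protein by western blot in mast cells grown from *p85α−/−* marrow, with the blot not shown.

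The cells were checked against mast cell markers. All 21 listed mast cell genes were measured, and 17 of them were well above background in all 6 channels. *Kit*, one of the sort markers, had levels of 10.10, 8.07 and 8.58 in WT and 11.55, 10.26 and 11.11 in *p85α−/−*. *Fcer1a*, which encodes the IgE-binding chain, had 11.73, 9.15 and 9.03 in WT and 8.73, 12.48 and 10.42 in *p85α−/−*. All *Kit* levels of *p85α−/−* were above those of WT, whereas those of *Fcer1a* overlapped. *Ms4a2*, the beta chain of the same receptor, was well above background in WT only in replicate 3.

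At the brightest probe of each of the 6 measured eosinophil and basophil genes, the signal was well above background in all 6 channels, as it was at 25552 of the 41157 tested probes. Mean log2 ratios of *p85α−/−* over WT lay above 0 for *Ccr3*, *Cd200r3*, *Epx* and *Prg2* and below 0 for *Prss34* and *Ear1*, from −0.66 to 1.53 with a median of 0.67. That median was 0.06, 0.82 and 0.47 without replicates 1, 2 and 3 in turn, and 1.33 with median centring. Over all tested probes the median was −0.05, and 44.8% had a mean above 0. By limma, 0 of the 6 genes and 0 of the 41157 tested probes (0%) reached a Benjamini-Hochberg adjusted p under 0.05, while 1829 probes had an unadjusted p under 0.05. None of the 6 passed 1.5-fold together with an unadjusted p under 0.05, which 4.44% of all probes did. Only *Ccr3* was higher in *p85α−/−* on all 3 arrays and none was lower on all 3, against 12.5% and 13.3% of all probes. No gene of the 6 had genotypes that did not overlap, against 4.54% of all probes with *p85α−/−* higher and 5.94% with *p85α−/−* lower. Fewer cells of a type and less RNA per cell cannot be told apart in such bulk samples.

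The spread between cultures of the same genotype was also compared with that of all probes. Over the 6 genes, the median SD was 0.77 between WT cultures and 1.34 between *p85α−/−* cultures, and that of the log2 ratio between arrays was 2.03. The same medians over all tested probes were 0.38, 0.39 and 0.67. All 6 genes, but only 25552 of the 41157 tested probes, were well above background in all 6 channels. Spread was not compared at like brightness, so these medians are not a matched reference. Large spreads were not particular to these genes, but were not found in every list. The median SD of the log2 ratio was 1.77 over the 20 further basophil genes and 1.49 over the 7 measured Ear genes. Over the 21 mast cell genes it was 1.26, over macrophage genes 1.19 and over neutrophil genes 1.05. Smaller values were 0.84 over erythroid and megakaryocyte genes, 0.83 over relatives and ligands and 0.78 over 16 other eosinophil genes. Array by array, 5 of the 6 genes had a log2 ratio above 0 in replicate 1, 3 in replicate 2 and 4 in replicate 3. The number of arrays limits the precision of every mean given here.

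*Prg2* encodes eosinophil major basic protein, a toxic component of the granule core. Its level was 8.14, 8.39 and 9.51 in the WT cultures of replicates 1, 2 and 3 and 9.41, 7.82 and 10.31 in the *p85α−/−* cultures. Replicate 3 had the highest culture of both genotypes, and the genotypes overlapped. The log2 ratio was 1.26, −0.57 and 0.80, a mean of 0.50 ± 0.95 (SD, n = 3) with a 95% confidence interval of −0.82 to 1.82 by limma. Before normalization the WT spots read 103, 115 and 525 and the *p85α−/−* spots 1064, 544 and 2249. Thus *p85α−/−* was brighter on every array before the channels were put on 1 scale, and lower in replicate 2 afterwards.

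*Epx* encodes eosinophil peroxidase, the granule enzyme that makes hypohalous acids. Its level was 9.03, 8.95 and 9.88 in WT and 11.48, 10.27 and 8.63 in *p85α−/−*. The *p85α−/−* cultures of replicates 1 and 2 were above every WT culture and that of replicate 3 below every WT culture. The log2 ratio was 2.44, 1.32 and −1.24, with a mean of 0.84 ± 1.89 (SD, n = 3; 95% confidence interval −1.54 to 3.21). Without replicate 3, the array of opposite sign, the mean was 1.88 and passed both criteria, with an unadjusted p of 0.032 by limma. In that setting 1748 of 41159 tested probes passed. Without replicate 1 the mean of *Epx* was 0.04.

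*Ear1* encodes an eosinophil-associated ribonuclease of the granules. Its level was 7.73, 9.19 and 10.28 in WT and 9.26, 8.47 and 7.47 in *p85α−/−*. In replicate 1 the *p85α−/−* culture was the higher one and in replicates 2 and 3 the WT culture. The log2 ratio was 1.53, −0.71 and −2.80, with a mean of −0.66 ± 2.17 (SD, n = 3; 95% confidence interval −3.36 to 2.04). Without replicate 3 the mean turned to 0.41, and without replicate 1 it was −1.76.

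*Prss34* encodes a tryptase-like protease of mouse basophils. In WT its level was 9.79, 12.37 and 9.37, and in *p85α−/−* it was 11.68, 8.04 and 11.38. The highest and the lowest of these 6 values were the WT and the *p85α−/−* culture of replicate 2, which shared an array, and the other 2 arrays went the opposite way. The log2 ratio was 1.89, −4.33 and 2.01, with a mean of −0.14 ± 3.62 (SD, n = 3; 95% confidence interval −4.57 to 4.29). Without replicate 2, the array of opposite sign, the mean was 1.95 and passed both criteria, with an unadjusted p of 0.00941 by limma. In that setting 3165 of 41159 tested probes passed, against 1829 with all arrays. Median centring of the ratios of each array, used instead of quantile normalization, gave 0.83.

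*Ccr3* encodes the eotaxin receptor, through which eosinophils and basophils migrate. At the brighter of its 2 probes the level was 7.38, 7.29 and 7.45 in WT and 11.78, 7.34 and 7.58 in *p85α−/−*. A single culture stood apart, the *p85α−/−* culture of replicate 1, whose spot read 9613 against 52.8 for WT on the same array. The spots of the other 5 cultures were all under the medians of their channels. The log2 ratio was 4.40, 0.06 and 0.13, with a mean of 1.53 ± 2.49 (SD, n = 3; 95% confidence interval −1.55 to 4.61), and 0.09 without replicate 1. The other probe did not show that culture apart: its level was 7.54, 7.94 and 7.47 in WT and 7.69, 7.54 and 7.79 in *p85α−/−*. Its log2 ratio was 0.15, −0.39 and 0.32, with a mean of 0.03 ± 0.37 (SD, n = 3). Both probes list the same RefSeq transcript, and the array's annotation (build not given in the sources used here) places them on chromosome 9, at 123749395 to 123749454 and 123748246 to 123748305. Thus the high value of *Ccr3* in replicate 1 rests on 1 probe.

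*Cd200r3* encodes an activating receptor of the CD200 receptor family, found on basophils and mast cells. The level at its brighter probe was 9.0, 7.37 and 8.34 in WT and 7.89, 9.56 and 10.08 in *p85α−/−*. Replicate 1 had the higher level in WT, replicates 2 and 3 in *p85α−/−*, and the genotypes overlapped. The log2 ratio was −1.12, 2.19 and 1.73, with a mean of 0.93 ± 1.79 (SD, n = 3; 95% confidence interval −1.33 to 3.20). Without replicate 1, the array of opposite sign, it was 1.96 and passed both criteria, with an unadjusted p of 0.0162 by limma. In that setting 1557 of 41168 tested probes passed. The dimmer probe, which lists no RefSeq transcript, had 6.90, 7.41 and 6.80 in WT and 6.79, 11.24 and 6.82 in *p85α−/−*. There the *p85α−/−* culture of replicate 2 stood alone, replicate 1 was not well above background in either genotype, and the mean log2 ratio was 1.25 ± 2.24 (SD, n = 3). The probes lie on chromosome 16, at 44735285 to 44735344 and 44743217 to 44743276 in the array's annotation, and differ in replicate 3, where the log2 ratio was 1.73 at the brighter and 0.02 at the dimmer one.

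By limma's test over all 41157 probes, the adjusted p was 0.908 for *Prg2*, *Epx*, *Ccr3* and *Cd200r3*, 0.930 for *Ear1* and 0.994 for *Prss34*. The array's annotation places the single probes of *Prg2* on chromosome 2 at 84826358 to 84826417, of *Epx* on chromosome 11 at 87934694 to 87934753, of *Ear1* on chromosome 14 at 39808157 to 39808216 and of *Prss34* on chromosome 17 at 23483088 to 23483147. Each interval held 0, and each mean was smaller than the SD between arrays.

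**Figure D1:**
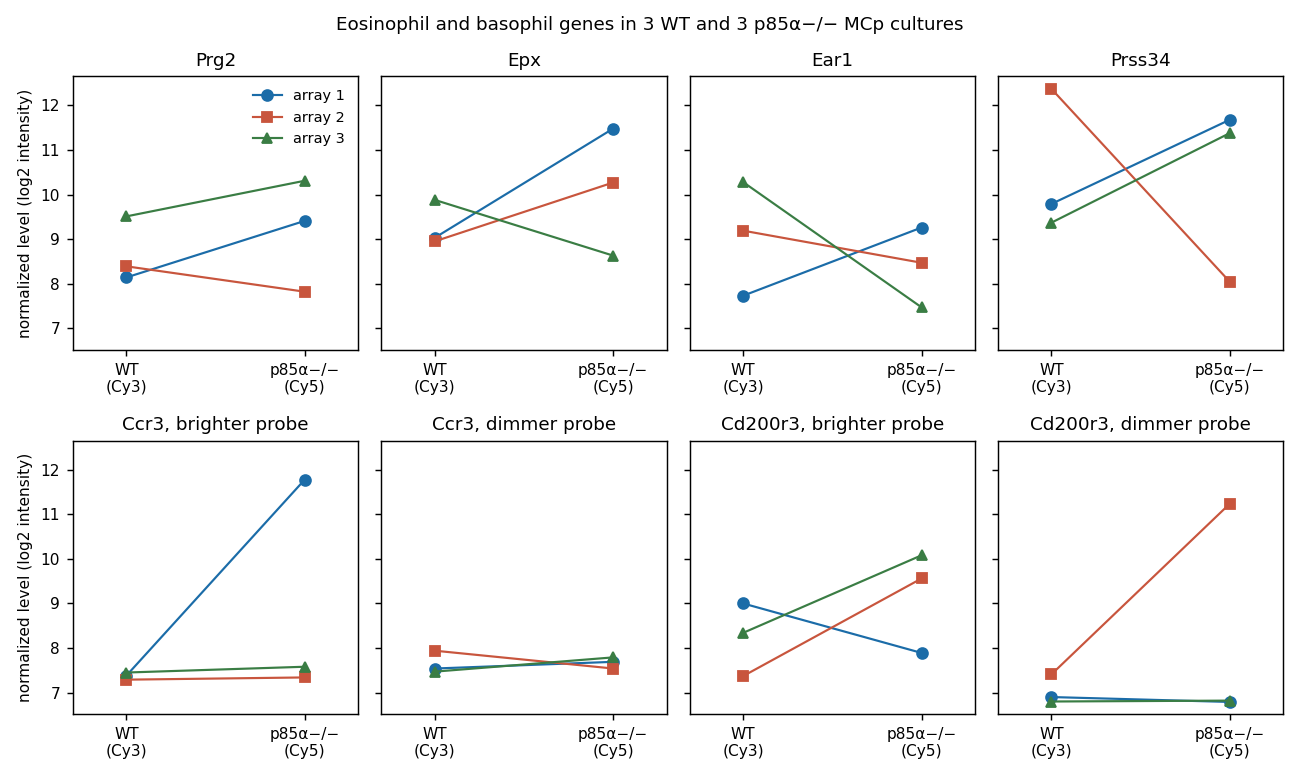
Normalized level (log2 intensity, vertical axis) of each probe of the 6 measured genes in WT (Cy3) and *p85α−/−* (Cy5) cultures, with a line joining the cultures of 1 array. Lines cross or run against each other at most probes, as at *Prss34*, where replicate 2 runs from 12.37 down to 8.04 and the other arrays run upward, and single cultures stand apart at *Ccr3* (11.78) and at the dimmer *Cd200r3* probe (11.24).

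*Siglec5* is an older name of the inhibitory sialic acid receptor that marks mouse eosinophils, and in RefSeq it is a synonym of both *Siglecf* and *Siglece*. Values of the *Siglecf* and *Siglece* probes are therefore given in its place, a step taken after the values were seen. The *Siglecf* probe had levels of 6.87, 6.92 and 6.95 in WT and 7.25, 7.13 and 7.16 in *p85α−/−*. All 3 *p85α−/−* cultures lay above all 3 WT cultures, but in a narrow range near background, and WT was not well above background in replicate 2. Of all probes, 4.54% had *p85α−/−* higher without overlap. With median centring replicate 1 was at −0.03 and the mean at 0.06, and over all alternatives the mean ran from 0.06 to 0.69. The mean log2 ratio of *Siglecf* was 0.27 ± 0.10 (SD, n = 3), with an adjusted p of 0.908 by limma. The *Siglece* probe had levels of 7.75, 7.87 and 8.15 in WT and 7.89, 7.67 and 7.38 in *p85α−/−*. These overlapped, with a mean log2 ratio of −0.28 ± 0.46 (SD, n = 3).

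*Ear2* is represented only through probes of its relatives. The mouse Ear genes are recent copies of one another on chromosome 14, so a probe of 1 of them may also bind transcripts of others. The probes named *Ear10* and *Ear3* each list 4 RefSeq transcripts, of which 2 matched a RefSeq symbol, *Ear10* and *Ear2*. Their signal cannot be assigned to 1 gene. The *Ear10* probe had levels of 6.72, 6.33 and 7.65 in WT and 7.86, 6.90 and 6.63 in *p85α−/−*. The *Ear3* probe had 6.70, 6.64 and 7.42 in WT and 7.65, 6.70 and 6.73 in *p85α−/−*. At both, WT was well above background only in replicate 3 and *p85α−/−* only in replicates 1 and 2, and the genotypes overlapped. Mean log2 ratios were 0.23 ± 1.12 and 0.11 ± 0.82 (SD, n = 3), and with loess or median centring both were below 0.

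Of the 14 Ear genes listed, 7 had a probe by name, and 4 of these were well above background in all 6 channels. The median of the mean log2 ratios of the 7 was −0.07, and 3 of the 7 were above 0. This median was −0.31 without replicate 1 and −0.16 with loess, each with 1 of the 7 above 0. It was 0.09 without replicate 2 and 0.41 without replicate 3, each with 5 above 0. *Ear5*, whose transcript RefSeq now names *Rnase2b*, had levels of 7.32, 9.51 and 8.20 in WT and 8.95, 7.56 and 6.97 in *p85α−/−*. *Ear6* had 8.17, 8.41 and 8.88 in WT and 9.22, 8.02 and 8.02 in *p85α−/−* at its brighter probe. At both genes *p85α−/−* was the higher culture in replicate 1 and the lower one in replicates 2 and 3. The dimmer *Ear6* probe had log2 ratios of 0.43, −0.06 and −0.63, but on every array 1 of its channels was not well above background.

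*Ear11*, whose transcript RefSeq now names *Rnase2a*, was the brightest of the Ear genes and ran the other way in replicates 1 and 2. Its level was 12.38, 9.20 and 12.26 in WT and 9.01, 10.97 and 9.94 in *p85α−/−*. WT cultures 1 and 3 were the highest, and the mean log2 ratio was −1.31 ± 2.71 (SD, n = 3). *Ear14* had levels of 6.90, 6.91 and 7.28 in WT and 9.85, 6.92 and 8.32 in *p85α−/−*. The *p85α−/−* cultures of replicates 1 and 3 stood above the rest, and WT was well above background only in replicate 3. The mean log2 ratio of *Ear14*, 1.33 ± 1.49 (SD, n = 3), thus rests on WT values near background in replicates 1 and 2, and with the software's log ratio it was 2.85. On 3 arrays none of the 7 Ear genes passed 1.5-fold with an unadjusted p under 0.05, and their lowest adjusted p by limma was 0.908. With a replicate left out, both criteria were passed by *Ear11* without replicate 2 (−2.84) and by *Ear5* without replicate 1 (−1.59). Of all probes, 3165 and 1557 passed in these settings. Over all alternatives *Ear11* ran from −2.84 to −0.27 and *Ear14* from 0.52 to 2.85.

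A pattern over arrays was seen among the Ear genes, noticed after the values were examined. *Ear1*, *Ear3*, *Ear5*, *Ear6* and *Ear10*, 5 of the 7, were higher in *p85α−/−* in replicate 1 and lower in replicate 3, as were 21.8% of all tested probes. Array by array, 6 of the 7 were above 0 in replicate 1, 4 in replicate 2 and 1 in replicate 3, with medians of 1.13, 0.01 and −1.02. The counts for replicates 1 and 3 were 6 and 1 under each of 5 other settings of scaling and signal as well, while that of replicate 2 was 2 or 4. Probes of this family can bind related transcripts, so these genes are not independent counts. The array's annotation places the probes of *Ear1*, *Ear5*, *Ear6*, *Ear11* and *Ear14* on chromosome 14, and those of *Ear3* and *Ear10* on sequence not assigned to a chromosome.

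**Figure D2:**
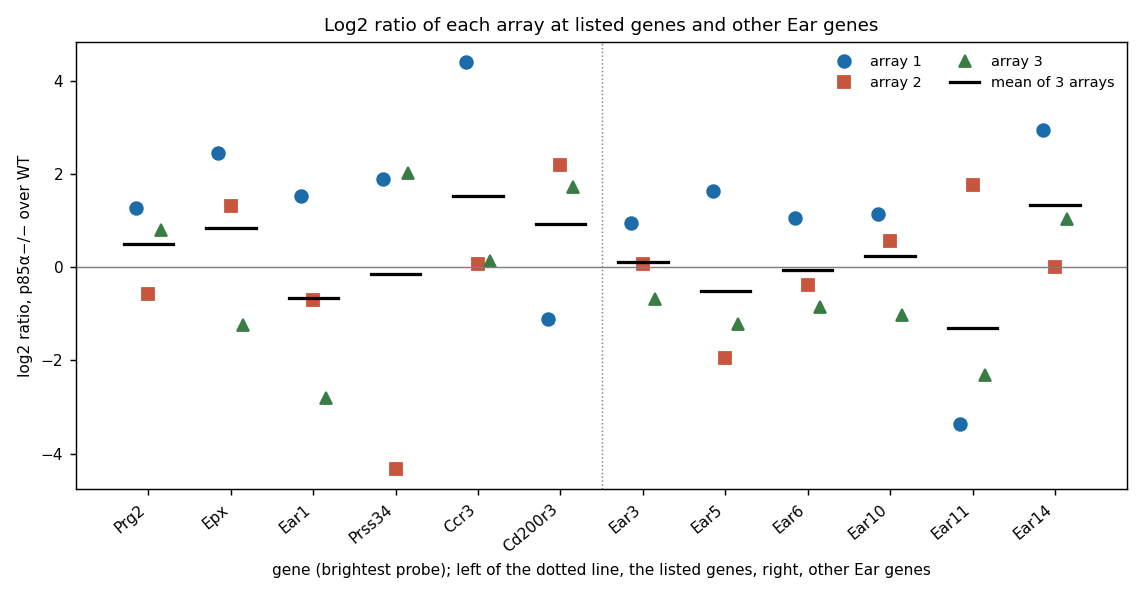
Log2 ratio of *p85α−/−* over WT (vertical axis) at the brightest probe of each listed gene, left of the dotted line, and of the other measured Ear genes, right of it, with 1 symbol per array and a bar at the mean of 3 arrays. Replicate 1 lies above and replicate 3 below 0 at *Ear1*, *Ear3*, *Ear5*, *Ear6* and *Ear10*, whereas *Ear11* lies at −3.37 in replicate 1.

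How alike the copies are can be seen in the DNA just before their starts, shown for *Ear1*, for *Ear2*, which has no probe of its own, and for *Ear6* and *Ear10*, whose probes, like that of *Ear1*, were higher in *p85α−/−* in replicate 1 and lower in replicate 3. The 150 bases before each start come from RefSeq (GRCm38.p6), at chr14:43819640-43819789 (minus strand), chr14:44102504-44102653 (plus strand), chr14:51853618-51853767 (plus strand) and chr14:43923597-43923746 (minus strand). They lie outside the transcripts that the probes read. Capitals mark bases that differ from *Ear1* or are inserted relative to it in a global alignment.
Ear1: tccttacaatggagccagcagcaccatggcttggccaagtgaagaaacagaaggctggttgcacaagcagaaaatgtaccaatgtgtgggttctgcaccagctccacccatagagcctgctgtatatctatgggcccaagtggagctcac
Ear2: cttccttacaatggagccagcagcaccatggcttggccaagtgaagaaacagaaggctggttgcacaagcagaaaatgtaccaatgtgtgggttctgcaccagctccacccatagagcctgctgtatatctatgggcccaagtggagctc
Ear6: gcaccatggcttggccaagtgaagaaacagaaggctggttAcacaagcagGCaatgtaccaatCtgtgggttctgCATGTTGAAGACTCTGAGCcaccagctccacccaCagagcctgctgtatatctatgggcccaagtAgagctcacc
Ear10: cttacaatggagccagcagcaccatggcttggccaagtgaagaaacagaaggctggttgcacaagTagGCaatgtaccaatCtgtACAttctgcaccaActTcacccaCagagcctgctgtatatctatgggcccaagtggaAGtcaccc
Within the aligned stretch, *Ear2* was identical to *Ear1* in 148 of 148 columns, *Ear10* in 136 of 148 (91.9%) and *Ear6* in 124 of 149 (83.2%). Most of the difference of *Ear6* is an insertion, which takes 19 gap columns. A promoter was found in the same table for 7 genes, counting *Siglecf* for *Siglec5*. The motif of GATA factors, spelled AGATAA or AGATAG with an opening A and TGATAA or TGATAG with an opening T, was searched on both strands of the 250 bases before each start. It was found for *Ccr3*, *Prss34* and *Cd200r3*, 3 of the 7, and in 26.5% of all 32851 promoters.

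Other genes of eosinophils were measured beside them. Of 17 listed, 16 had a probe, and their median log2 ratio was −0.35, with 6 above 0, 10 below 0 and 7 lower on all 3 arrays, against 13.3% of all probes. With median centring the median was −0.07, 7 were above 0, and 1 gene passed both criteria in each direction in place of 2 that were lower. Of all probes 2692 passed with median centring, in place of 1829 (4.44%). *Prg3*, which encodes a homolog of major basic protein, had levels of 12.23, 12.58 and 11.96 in WT and 10.94, 11.43 and 11.20 in *p85α−/−*. Every WT culture was above every *p85α−/−* culture. Before normalization the *p85α−/−* spots were the brighter ones on every array, at 4608, 4693 and 4806 against 1579, 3449 and 2074 for WT. The mean log2 ratio was −1.07 ± 0.27 (SD, n = 3), past 1.5-fold and an unadjusted p under 0.05, with an adjusted p of 0.908 by limma, but it was −0.04 with median centring and did not pass under 5 of 13 alternatives. *Xbp1*, a transcription factor of secretory cells that eosinophil precursors need, had levels of 9.79, 9.66 and 9.27 in WT and 6.93, 7.90 and 6.98 in *p85α−/−*. Here too the genotypes did not overlap, with a mean log2 ratio of −2.30 ± 0.55 (SD, n = 3; limma adjusted p 0.763). *Xbp1* passed both criteria under all 13 alternatives tried for it, at mean log2 ratios from −4.06 to −1.87.

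The receptors of this list went different ways. *Il5ra*, the specific chain of the receptor for the eosinophil growth factor IL-5, had levels of 7.21, 6.76 and 8.07 in WT and 6.98, 6.88 and 7.23 in *p85α−/−*. These overlapped and lay close to background, where WT replicate 2 did not rise well above it. *Csf2rb2*, a beta chain of the IL-3 receptor and the brightest of the list, had 11.29, 10.31 and 11.37 in WT and 12.96, 15.60 and 12.31 in *p85α−/−*. All *p85α−/−* cultures were above all WT cultures, with a mean log2 ratio of 2.64 ± 2.33 (SD, n = 3; limma adjusted p 0.908). It was 1.3 without replicate 2 and passed both criteria under 4 of 13 alternatives. In all, the genotypes did not overlap at 6 of the 16 genes, 5 of them lower and 1 higher in *p85α−/−*, against 5.94% and 4.54% of all probes. The 5 include the chemokine receptor *Ccr1*, which was not well above background in any channel, and *Emr1*, which is also in the macrophage list.

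Of 21 further basophil genes, 20 had a probe, with 15 above 0 and a median log2 ratio of 0.54. With median centring 18 were above 0, the median was 1.23 and 7 genes passed both criteria in place of 2. Over all 41157 probes, 2692 then passed in place of 1829, with 2453 higher in *p85α−/−* in place of 1145. The genes that passed were 5 without replicate 1, all higher in *p85α−/−*, and 2 in each direction without replicate 2. Of all probes, 1557 and 3165 passed in these settings. Leaving out replicate 3 gave 12 above 0, at a median of 0.44. None passed by the methods' t-test, paired or not. Besides *Cebpa*, which the eosinophil list also holds, 4 of the 20 genes (*Fcer1a*, *Il1rl1*, *Hdc* and *Gata2*) are also in the mast cell list. *Mcpt8*, a protease used to mark mouse basophils, had levels of 10.17, 11.89 and 8.85 in WT and 10.75, 12.47 and 10.36 in *p85α−/−*. It was higher in *p85α−/−* on all 3 arrays, by 0.59, 0.58 and 1.51, but the genotypes overlapped, and the adjusted p was 0.908 by limma. The mean of *Mcpt8* was 0.89, and over 13 alternatives it ran from 0.59 to 1.54. Only median centring, at 1.54, brought it past both criteria, with an unadjusted p of 0.041 by limma. In WT the replicates of *Mcpt8* and *Prss34* had the same order, with replicate 2 the highest and replicate 3 the lowest, whereas in *p85α−/−* replicate 2 was the highest for *Mcpt8* and the lowest for *Prss34*. Past 1.5-fold and an unadjusted p under 0.05 were *Il1rl1*, the IL-33 receptor, at 2.59 ± 1.18, and *Cyp11a1*, a steroid-forming enzyme, at 2.92 ± 2.14 (SD, n = 3), both higher in *p85α−/−* with an adjusted p of 0.908 by limma. Of all probes 4.44% passed both criteria. The dimmer *Cyp11a1* probe had a mean of 1.05 and the other *Il1rl1* probes 1.61 and 0.82, and none of these passed. At the *Il1rl1* probe with 0.82, WT was not well above background on any array, so this ratio may understate the difference. *Il1rl1* no longer passed under 2 and *Cyp11a1* under 4 of the 13 alternatives that have a test. The brightest gene was *Il3ra*, with a mean log2 ratio of −0.34 ± 1.87 (SD, n = 3).

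Relatives and ligands of the 8 genes, 21 of 23 with a probe, had a median log2 ratio of 0.01. Leaving out replicate 3 gave −0.32, with 5 above 0 in place of 11, and median centring gave 0.22. *Siglec1*, a sialic acid receptor of macrophages, was lower on all 3 arrays at −0.80 ± 0.25 (SD, n = 3), past both criteria, with an adjusted p of 0.908 by limma. Before normalization its *p85α−/−* spots were the brighter ones, at 714, 3063 and 1945 against 356, 1097 and 1322 for WT. Its genotypes overlapped, with median centring the mean was −0.09, and it no longer passed under 9 of the 13 alternatives with a test. The dimmer probe had 0.14 ± 0.06 (SD, n = 3), and the mean over both probes was −0.33, under 1.5-fold. *Prss32*, a relative of *Prss34* and the brightest of the list, had −0.61 ± 0.85 (SD, n = 3), and *Ccl11*, which encodes the CCR3 ligand eotaxin, was not well above background in any channel.

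Markers of other cells were read on the same arrays. The median log2 ratio of the 21 mast cell genes was 0.79, and 17 of them lay above 0. *Kit*, *Fcer1g*, *Il1rl1*, *Cma1* and *Prg1* passed both criteria, all higher in *p85α−/−*. Of all 41157 probes 4.44% passed, 1145 of them higher in *p85α−/−*. *Kit* passed under all 13 alternatives that have a test, whereas *Cma1* did not under 5, *Prg1* under 4, and *Fcer1g* and *Il1rl1* under 2 each. By the methods' t-test only *Kit* passed when paired by array, and *Kit* and *Prg1* passed without pairing. The passing genes were 6 higher and 1 lower in *p85α−/−* without replicate 1, and 3 higher and 1 lower without replicate 2. Of all probes, 1557 and 3165 passed in these settings. Normalized intensities of the 21 genes summed to 78153, 46098 and 56113 in WT and 197564, 167688 and 124027 in *p85α−/−*, with *Cma1*, a chymase, as the brightest gene. The *p85α−/−* sums were the higher ones on every array. Of 14 neutrophil genes 10 were above 0, with a median of 0.97, and *Ctsg*, *S100a8* and *S100a9* passed both criteria, against 4.44% of all probes. *Ctsg* did so under all 13 alternatives, while *S100a8* and *S100a9* did not under 6 and 5 of them, and their genotypes overlapped. The sums over the neutrophil genes were 12039, 21233 and 11022 in WT and 73701, 11780 and 237248 in *p85α−/−*, with *p85α−/−* above WT in replicates 1 and 3 and below it in replicate 2. *Mpo* alone gave most of the sum in replicates 1 and 2 of WT and in replicates 1 and 3 of *p85α−/−*. Counted by gene, 12, 9 and 9 of the 14 were above 0 in replicates 1, 2 and 3, with medians of 0.95, 0.18 and 0.82, so most were not below WT in replicate 2.

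The brightest neutrophil gene, *Mpo*, had levels of 12.58, 14.05 and 12.20 in WT and 15.48, 10.68 and 17.59 in *p85α−/−*. Its log2 ratios were 2.90, −3.37 and 5.39, and those of *Ela2*, neutrophil elastase, singled out after its values were seen, were 3.54, −1.77 and 4.90. Higher in *p85α−/−* in replicates 1 and 3 and lower in replicate 2 were *Prss34* and *Prg2* among the 6 listed genes, 3 of the 14 neutrophil genes (*Mpo*, *Ela2* and *Retnlg*), 3 of 12 macrophage genes, 4 of the 20 further basophil genes, the brightest *Pik3r1* probe and 14.4% of all probes. These signs are thus not particular to neutrophil genes. The part of neutrophil or mast cell transcripts in the values of the eosinophil and basophil genes was not tested. Of 12 measured macrophage genes 7 were above 0, with a median of 0.10 and *Marco* as the brightest, and of 10 erythroid and megakaryocyte genes 6, with a median of 0.06 and *Hbb-b1* as the brightest. None of these passed both criteria at its brightest probe. Median centring gave higher medians, 0.58 for the macrophage and 0.35 for the erythroid and megakaryocyte genes, of which 10 and 9 were then above 0. Under it 1 erythroid or megakaryocyte gene passed both criteria, 8 mast cell genes passed in place of 5, and 5 neutrophil genes passed in place of 3, at a neutrophil median of 1.5. Over all probes 2692 passed under it in place of 1829, most of them (2453) higher in *p85α−/−*. Without replicate 2 the neutrophil genes that passed were 6, and without replicate 3 there was 1, at a median of 0.52. Of all probes, 3165 and 1748 passed in these settings. *Lcn2* and *Mrc1*, markers of neutrophils and macrophages, did not rise well above background in any WT culture, but each did in 2 *p85α−/−* cultures.

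The genes whose 6 levels most resembled each listed gene were sought among the 25552 probes well above background in all channels, by Pearson's r over 6 values. They were *Actr3* (0.987) and *Dgkq* (0.986) for *Prg2*, *Mtpn* (0.998) and *Zfp358* (0.994) for *Epx*, and *L20961* (0.989) and *Cacna1i* (0.980) for *Ear1*. For the others they were *Ppapdc1a* and *6720469N11Rik* (both 0.995) for *Prss34*, *Actr3b* (0.9997) and *2700081O15Rik* (0.998) for *Ccr3*, and *Wdr18* (0.998) and *Rtn3* (0.994) for *Cd200r3*. The 6 values come in pairs from 3 arrays, and cannot be taken as independent. An r over 0.95 was reached by 401 probes for *Ccr3*, whose values are 1 high culture and 5 low ones, by 154 for *Prss34*, 97 for *Epx*, 29 for *Ear1*, 22 for *Cd200r3* and 21 for *Prg2*. No listed gene was among the 2 most alike of another.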

How the data were processed

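Eosinophil and basophil genes were measured on 3 Agilent whole-mouse arrays, each with 1 WT culture (Cy3) and 1 *p85α−/−* culture (Cy5), with all 3 on 1 slide and scanned the same day. The authors deposited spot intensity values extracted with Agilent Feature Extraction 9.5.1.1, per the file headers, with processed intensity values, flags and a log10 ratio that this software computed, and a table of log10 ratios whose making is not given in the sources used here. For replicates 1, 2 and 3 that table carried the scanner's log10 ratio of the named probe (tolerance 1.5e-05) on 40929, 190 and 226 of 40929 probes with 1 spot, with column medians of 0, 0.0245 and −0.00306. It was not used further, since scale and direction were settled only for replicate 1.

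Mean signals were corrected with normexp (offset 50) and quantile normalized over 6 channels (R 4.3.3, limma 3.58.1). The methods of the study name quantile normalization across chips, whereas the background correction and the use of separate channels were chosen here. Control spots and outlier-flagged spots were left out and spots averaged per probe. Between 69.4% and 85.3% of WT spots and between 77.3% and 93.8% of *p85α−/−* spots were well above background, and 0 were saturated. The log2 ratio of each array, which pairs the cultures hybridized together, was tested against 0 with limma (eBayes) over the 41157 probes with 3 values, with Benjamini-Hochberg adjustment. A gene with several probes was counted by its brightest.

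Genes were taken by the array's names, and transcripts were named through RefSeq (GRCm38.p6). The text names all listed genes and Ear genes, *Pik3r1*, defining markers, and of each other list its brightest gene, genes past both criteria, and the most alike genes. Where only a dimmer probe passed them (*Cd244*, *Slc18a2*, *Lyzs*), the gene was not counted. The members and lists were chosen with earlier results of these data known. *Siglecf*, *Siglece* and *Ela2* were added after their values were seen. Sequences were aligned with Biopython 1.88, and plots were drawn with matplotlib 3.10.9. Alternatives varied the scaling (loess with Aquantile, or median centring), the signal (background not subtracted, the software's processed values or its log ratio) and the filter (dim probes left out, or outlier spots retained). Others were the methods' t-test, limma with no replicate block, 1 replicate left out, and the mean over a gene's probes.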

Additional observations from a re-analysis of the deposited data

How the results depend on the processing

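By limma, 1829 probes passed both criteria (1.5-fold, unadjusted p under 0.05). The methods' t-test passed 1125 without pairing and 819 with it. The count was 1557 to 3165 with 1 replicate left out and 1809 with limma and no replicate block, that is without the pairing by array. After Benjamini-Hochberg adjustment 0 probes passed under any alternative. With median centring 91.1% of the passing probes were higher in *p85α−/−*, against 62.6%, and the median of all probes moved from −0.05 to 0.09, so that directions are relative to the scaling. The share was 47.5% without replicate 2, where most passing probes were lower in *p85α−/−*, and 54% to 71.3% under the other alternatives. Of the 6 genes, 4 were above 0 under every alternative except median centring, where 5 were, and 1 replicate left out, where 4 or 5 were. None passed both criteria except with a replicate left out. In each such case this was 1 gene, whose array of opposite sign had been left out. Over all alternatives *Prg2* ran from 0.12 to 1.15, *Epx* from 0.04 to 1.88, *Ear1* from −1.76 to 0.41, *Prss34* from −1.22 to 1.95, *Ccr3* from 0.09 to 2.56 and *Cd200r3* from 0.31 to 1.96. The mean over both probes was 0.78 for *Ccr3* and 1.09 for *Cd200r3*. With median centring the sign changed for *Prss34* (0.83), *Ear3* (−0.53), *Ear6* (0.33), *Ear10* (−0.34), *Il3ra* (0.93), *Prss32* (0.58), *Marco* (0.84) and *Hbb-b1* (0.36). It changed with loess for *Ear3* (−0.15) and *Ear10* (−0.08), and with the software's log ratio for *Ear6* (0.02). The cause was not tested. With 1 replicate left out in turn, where the sample left out is the only change, *Ear1* ran from −1.76 to 0.41, *Prss34* from −1.22 to 1.95, *Ear3* from −0.31 to 0.50, *Ear5* from −1.59 to 0.20, *Ear6* from −0.63 to 0.33, *Ear10* from −0.22 to 0.85, *Il3ra* from −1.34 to 0.52, *Fcer1a* from −0.80 to 2.36, *Marco* from −0.80 to 0.44 and *Mpo* from −0.24 to 4.15. WT signal over background limits what dim probes such as *Ear3*, *Ear10* and *Siglecf* can show. The authors' table was not run as an alternative because in replicates 2 and 3 only 190 and 226 of 40929 values equalled the scanner's ratio of the named probe; how the others were made was not tested.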
